A study of Mus musculus with 4 samples.

Results

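Of 18605 genes whose symbols were listed in the tables of all 4 libraries, 7 iron storage and transport genes were followed through the cell types of subcutaneous Lewis lung carcinoma tumors. They were chosen by name: Fth1 and Ftl1, the heavy and light subunits of the ferritin shell that stores iron, Slc40a1, the iron exporter ferroportin, Tfrc, the transferrin receptor that brings iron in, Slc11a1 and Slc11a2, metal transporters of the phagosome and of the endosome, and Lcn2, lipocalin 2, which binds bacterial siderophores. All 7 were found in every library and were left out of the genes used for clustering and for naming cells.

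Lewis lung carcinoma (LLC) is a mouse lung carcinoma line, grown here under the skin of female C57BL/6N mice aged 6 to 8 weeks until tumors reached about 100 mm3. The radiotherapy group (RT) received 3 fractions of 8 Gy, 24 Gy in total, on days 7 to 9, and each of the libraries RT1, RT2 and RT3 held 1 tumor. The non-treated group (NT) was not irradiated, and 3 of its tumors were pooled in 1 library, so the spread between control tumors was not measured. All tumors were collected at 72 h and sequenced as 3′ single-cell RNA libraries, with 69667759 (NT), 78585759 (RT1), 108699844 (RT2) and 85660188 (RT3) unique molecular identifiers (UMIs, counted molecules) over 55805 barcodes. Because RT libraries stand against a single NT library, no test of treatment was possible, and treatment cannot be told apart from anything else that set that library apart.

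Iron enters most cells on transferrin through the transferrin receptor, is kept in ferritin, and leaves through ferroportin, the only known iron exporter of mammals. Macrophages add a route of their own: they take up dying cells and heme, free the iron with heme oxygenase, and hand it on or store it. Much of this control acts after transcription, through iron regulatory proteins that bind a hairpin, the iron-responsive element, in the messenger RNA: in the 5′ UTR it blocks translation when iron is scarce, and in the 3′ UTR it stabilizes the transcript. UMI counts measure the transcript and not the protein.

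Hairpins of this kind found in the 7 genes are shown because a transcript count does not record control of translation through them. A search of GENCODE M21 transcripts (build GRCm38) for the letters CAGTGN closed by 5 paired bases (G with T allowed), with a C before the 5′ arm, matched 4 of the genes; capitals mark the loop, and 29 bases are printed 5′ to 3′.
Fth1, 5′ UTR, chr19:9982732-9982760, plus strand: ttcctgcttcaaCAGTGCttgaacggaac
Ftl1, 5′ UTR, chr7:45459779-45459807, minus strand: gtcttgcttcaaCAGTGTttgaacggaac
Slc40a1, 5′ UTR, chr1:45925465-45925493, minus strand: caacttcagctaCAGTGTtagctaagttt
Tfrc, 3′ UTR, chr16:32631219-32631247, plus strand: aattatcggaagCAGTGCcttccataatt
Tfrc, 3′ UTR, chr16:32631598-32631626, plus strand: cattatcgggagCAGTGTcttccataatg
Tfrc, 3′ UTR, chr16:32631663-32631691, plus strand: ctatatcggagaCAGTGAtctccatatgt
Tfrc, 3′ UTR, chr16:32631710-32631738, plus strand: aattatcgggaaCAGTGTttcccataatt
The storage and export genes carried a match before the coding sequence and Tfrc carried 4 after it. Of 21877 genes with a coding transcript, 31 held the pattern in a 5′ UTR (0.142%) and 129 in a 3′ UTR (0.59%). The full pattern was not found in Slc11a1, Slc11a2 or Lcn2 transcripts, which says only that this strict form is not there: Slc11a2 is known to have transcripts with an iron-responsive element in the 3′ UTR.

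After filtering, 55058 cells fell into 18 clusters and 8 cell classes named by marker genes. Macrophages (8411 cells, named by markers such as C1qc, Apoe, Folr2 and Ms4a7) numbered 768 in NT and 2983, 2900 and 1760 in RT1 to RT3. Tumor cells (21219, named by Rhox5, Krt8, Krt18, Hmga2, Igf2bp2 and Pthlh) numbered 5236 in NT and 5179, 4587 and 6217 in RT1 to RT3. NT held only 23 neutrophils and 18 fibroblasts, and 15529 cells stayed unnamed. Levels are given as CPM, the gene's UMIs divided by all UMIs of that class in that library on the usual CPM scale.

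Marker genes of one class were also counted in others, and whether through free RNA, cells captured together or misassigned cells was not tested. Rhox5, an LLC marker, stood in macrophages at 17.5%, 24.3%, 21.5% and 31.6% of its tumor cell level in NT, RT1, RT2 and RT3. Most of it was in macrophage cluster 9, which held Rhox5 at 71.9% of the tumor level, against 4.3% in macrophage cluster 4. The median cell of cluster 9 was shallow, with 0.264 of the median UMIs of its library. When myeloid cells were clustered again on their own, Rhox5 was highest in the unnamed sub-clusters 7 and 9 (means of 750 and 991 CPM). Their median cells were deep, at 1.63 and 2.47 of the library median. The shallow unnamed sub-cluster 2 (0.211) averaged 184 CPM. In neutrophils Rhox5 was at 945, 698, 588 and 718 CPM, against 1106, 1360, 1260 and 1243 CPM in tumor cells, so the neutrophil class also held tumor cell transcripts. In the other direction the share was small: Csf1r, a macrophage gene, stood in tumor cells at 0.0461% to 0.431% of its macrophage level. RT2 had been deposited with fewer genes than the other libraries and with no cell above 11.95% mitochondrial UMIs, and pairs of libraries shared 182 to 277 barcodes.

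**Figure D1:**
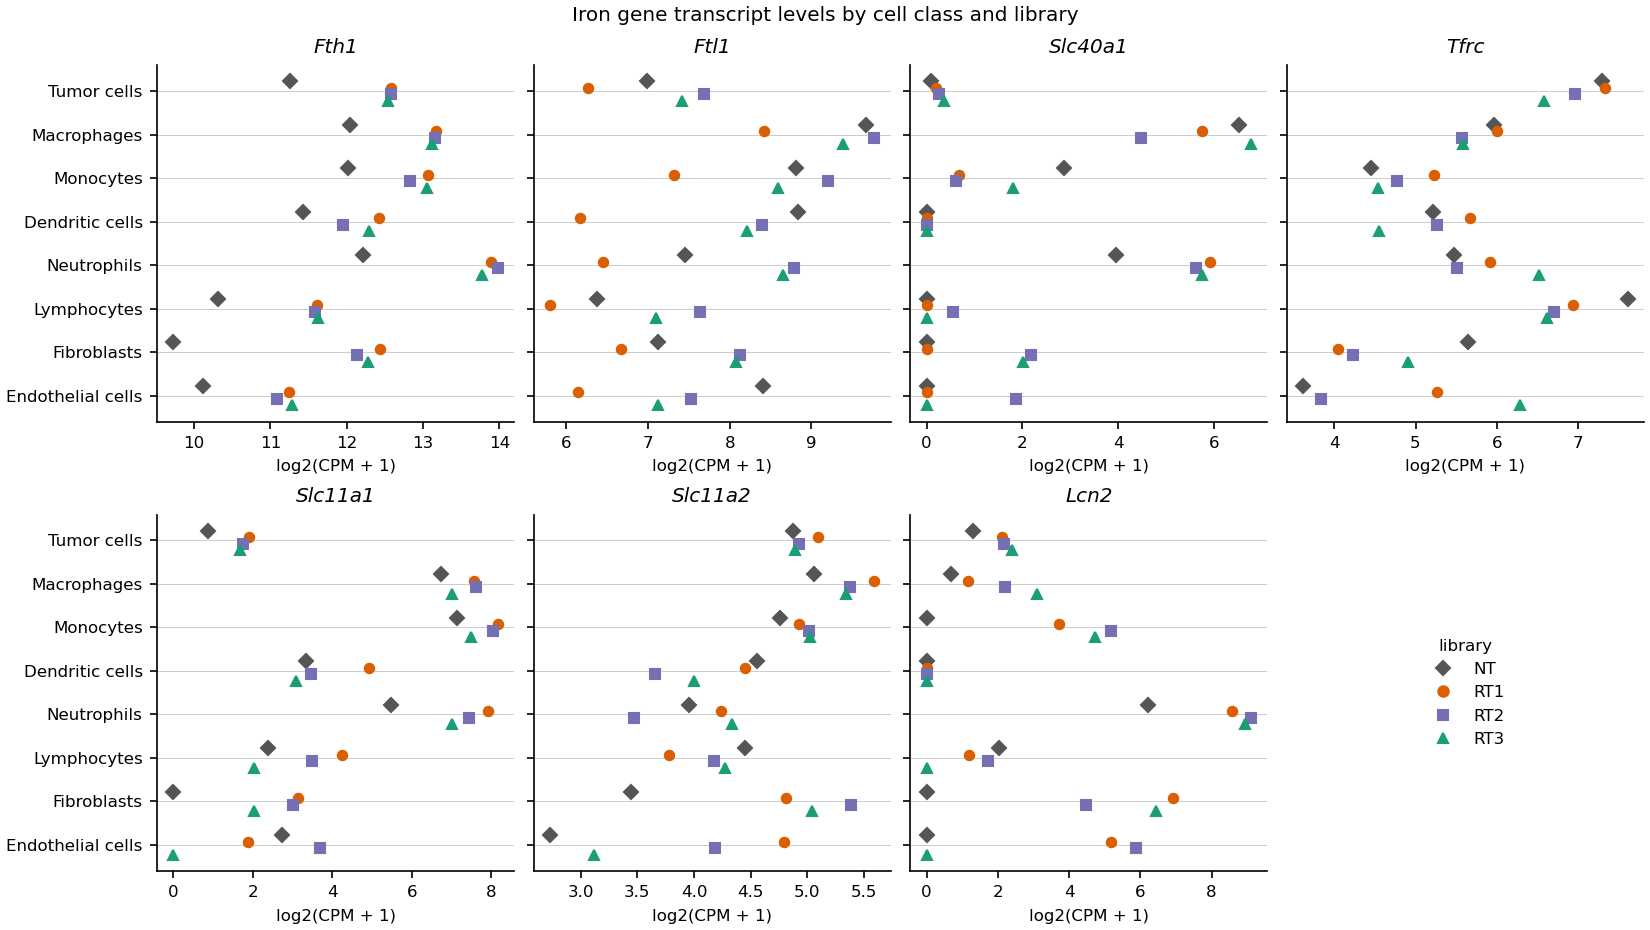
Transcript level of each of the 7 genes as log2(CPM + 1) on the horizontal axis, in 8 cell classes on the vertical axis, with 1 point for each library (grey diamonds NT, orange circles RT1, purple squares RT2, green triangles RT3). Slc40a1 stands apart in macrophages and neutrophils, Lcn2 in neutrophils, and Fth1 is lowest in NT in all 8 classes.

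The first comparison asked where in the tumor the iron genes were expressed, with macrophages set against tumor cells. Macrophages held far more transcript of the exporter Slc40a1 and of the phagosomal transporter Slc11a1, more of both ferritin subunits and of Slc11a2, and less of the uptake receptor Tfrc. UMIs summed per library and class were tested with edgeR's quasi-likelihood test with the library as a block, with p-values adjusted over 12913 genes. By this test 5 of the 7 genes were higher in macrophages and 1 was lower, at an adjusted p under 0.05. These classes differ widely, so that 75.4% of all genes tested passed the same threshold (37.3% higher and 38% lower in macrophages), and the sizes of the differences say more than the count. The plot of levels by class shows these differences library by library.

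Slc40a1 showed the largest difference of the 7. In macrophages it was at 90.4 CPM in NT, 52.7 in RT1, 21.3 in RT2 and 108 in RT3. In tumor cells only 33 UMIs were counted over all libraries, with 0.0624, 0.151, 0.188 and 0.278 CPM. Every macrophage sum thus lay above every tumor cell sum, and the log2 ratio was 9.01 (SE 0.26, adjusted p = 1.4e-08). The tumor cell level of Slc40a1 was 0.069%, 0.287%, 0.883% and 0.257% of the macrophage level in NT, RT1, RT2 and RT3, beside 0.0461%, 0.379%, 0.431% and 0.217% for Csf1r, so these shares were of the same order.

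Slc11a1, which pumps iron and manganese out of the phagosome, was at 106, 189, 195 and 127 CPM in macrophages of NT, RT1, RT2 and RT3. Tumor cells held 0.832, 2.74, 2.37 and 2.2 CPM. This was 0.786%, 1.45%, 1.22% and 1.73% of the macrophage level, above the share of Csf1r in each library. The groups did not overlap, and the log2 ratio was 6.75 (SE 0.17, adjusted p = 7.2e-09). Its relative Slc11a2, the divalent metal transporter that moves iron from the endosome into the cytosol, differed far less. It was at 32.3, 47.2, 40.5 and 39.5 CPM in macrophages and at 28.3, 33.2, 29.3 and 28.6 CPM in tumor cells, higher in macrophages within each of the 4 libraries, with a log2 ratio of 0.90 (SE 0.08, adjusted p = 8.9e-06).

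Both ferritin subunits were higher in macrophages, the light chain by more. Ftl1 was at 814, 343, 872 and 670 CPM in macrophages and at 126, 76.3, 205 and 170 CPM in tumor cells, with a log2 ratio of 2.71 (SE 0.13, adjusted p = 2.6e-07). Fth1, which carries the ferroxidase activity that loads iron into the shell, was at 4208, 9176, 9097 and 8850.4 CPM in macrophages and at 2434, 6140.1, 6117 and 5963 CPM in tumor cells. Within each library the macrophage value was the higher one, but NT macrophages lay below the tumor cells of all RT libraries. The log2 ratio of Fth1 was 1.11 (SE 0.07, adjusted p = 2.1e-06). This holds for the tumor class as named. The unnamed cluster 1 (6810 cells), with tumor cells as its nearest class and Rhox5 at 90.6% of the tumor level, is not in it. Its Fth1 was at 3815, 9289, 10218 and 10079 CPM, below macrophages in NT and above them in RT1, RT2 and RT3. Reads of ferritin genes can be split with near-identical copies: a processed copy listed as Ftl1-ps1 held 771, 1124, 1664 and 1028 UMIs, and symbols of the Fthl17 copies were at 0 where listed, so ferritin levels are uncertain by the share that went to copies.

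Tfrc ran the other way. It was at 157, 161, 124 and 95.3 CPM in tumor cells and at 61.8, 63.1, 46.7 and 46.9 CPM in macrophages. All tumor cell values lay above all macrophage values, with a log2 ratio of -0.81 (SE 0.07, adjusted p = 1.6e-05). The size of this difference depended on how cells with tumor RNA were treated. Without macrophage cluster 9, whose median cell was also shallow, the ratio was -1.25. With the tumor RNA share subtracted the mean ratio of CPM went from -1.28 to -2.12. The cause of these changes was not tested.

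Lcn2 was low in both classes. Macrophages held 0.621, 1.26, 3.58 and 7.52 CPM and tumor cells 1.48, 3.32, 3.52 and 4.22 CPM, higher in macrophages in 2 of 4 libraries. The log2 ratio was 0.40 (SE 0.33, adjusted p = 0.30). Its sign depended on scaling and on how cells were assigned: the ratio was -0.09 with library totals and -1.54 (adjusted p = 0.0016) when each cell was classed by its own marker UMIs, and without RT1 it was 0.76 (adjusted p = 0.046).

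Scaling mattered for these sizes. The totals of both classes put the median log2 ratio of all genes at -0.52, and the TMM scaling used here moved it to -0.04, a shift of 0.48. With totals only, the 6 calls kept their sign and stayed past the threshold.

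Monocytes are the blood cells from which many tumor macrophages arise, and 54.2% of 10358 genes differed between them and macrophages. Slc40a1 was at 6.25, 0.588, 0.529 and 2.5 CPM in monocytes of NT, RT1, RT2 and RT3, below every macrophage value, with a log2 ratio of macrophages to monocytes of 5.05 (SE 0.22, adjusted p = 4.6e-10). Fth1, by contrast, was at 4130, 8527, 7272 and 8460 CPM in monocytes, and the ratio was -0.05 (SE 0.09, adjusted p = 0.68). The exporter thus differed between these classes and the heavy chain did not differ detectably.

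Ftl1 (log2 ratio 0.65, adjusted p = 5.3e-05), Tfrc (0.79, adjusted p = 3.6e-05) and Slc11a2 (0.28, adjusted p = 0.036) were also higher in macrophages than in monocytes by the same test, the last of these losing its call without RT1 (adjusted p = 0.30) or without RT2 (adjusted p = 0.096). Tfrc in the macrophage class includes cluster 9, with its tumor cell transcripts, at 138, 114, 75.0 and 73.3 CPM, while macrophage cluster 4 was at 38, 41.7, 35.6 and 32.3 CPM and monocytes at 20.8, 36.4, 26.3 and 22.2 CPM, so the size of this difference depends on cluster 9. Slc11a1 was lower in macrophages, with 141, 286, 263 and 178 CPM in monocytes and a log2 ratio of -0.66 (SE 0.08, adjusted p = 1.4e-05). It was lower within each of the 4 libraries, although the ranges over libraries overlapped. Lcn2 was lower too (log2 ratio -2.88, SE 0.26, adjusted p = 7.0e-07), with 0, 12.05, 35.1 and 25.4 CPM in monocytes.

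Neutrophils, which store lipocalin 2 in their granules, held the most Lcn2 of the 8 classes: 72.7 CPM from 5 UMIs in NT, and 377, 550.1 and 488 CPM in RT1 to RT3. Against macrophages, where 29.3% of 9118 genes differed, the log2 ratio of neutrophils to macrophages for Lcn2 was 6.95 (SE 0.27, adjusted p = 6.5e-19). Fibroblasts ranked next by the mean over libraries, with 119.8, 21.4 and 85.3 CPM in RT1 to RT3 and no UMI in NT. In RT2 endothelial cells (58.3 CPM) and monocytes (35.1 CPM) lay above them. Dendritic cells held no Lcn2 UMI in any library.

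Neutrophils had the second highest mean of Slc40a1, at 59.4, 48.5 and 52.7 CPM in RT1 to RT3 and at 14.5 CPM, from 1 UMI, in NT. The log2 ratio to macrophages was -0.17 (SE 0.30, adjusted p = 0.73). Macrophage markers summed to 14.5, 526, 690 and 235 CPM in these neutrophils, against 7225, 11383, 12613 and 9134 CPM in macrophages, and the part of macrophage RNA in this Slc40a1 level was not tested. Slc40a1 rested on 56 UMIs in all neutrophils.

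Neutrophils held less Ftl1 (log2 ratio to macrophages -1.51, SE 0.23, adjusted p = 5.2e-06) and less Slc11a2 (-1.64, SE 0.34, adjusted p = 3.1e-04) than macrophages. Fth1 was higher in neutrophils within each library, at 4726, 15119.7, 16146 and 13963 CPM, but not past the threshold (log2 ratio 0.41, SE 0.18, adjusted p = 0.084). Without NT it passed (0.60, adjusted p = 1.3e-05). Slc11a1 (-0.16, adjusted p = 0.60) and Tfrc (0.02, adjusted p = 0.97) did not differ detectably between neutrophils and macrophages. Tfrc was at 43.6 (3 UMIs), 59.4, 44.5 and 91.0 CPM in neutrophils of NT, RT1, RT2 and RT3. Both the neutrophil class and macrophage cluster 9 held tumor cell transcripts, and tumor cells were high in Tfrc. The part of tumor RNA in this comparison was not tested.

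Ordered by mean level over the 4 libraries, Fth1 was highest in neutrophils (12489 ± 5252 CPM, SD, n = 4), followed by macrophages (7833 ± 2420.4), monocytes (7097 ± 2060.4) and tumor cells (5164 ± 1821), and lowest in endothelial cells (2046 ± 638). NT lay below the RT libraries in each class, and neighbours in this order of Fth1 overlapped. Tfrc was highest in tumor cells (134 ± 30.7 CPM) and lymphocytes (130 ± 44.6), which did not differ beyond their spread, and was at 54.6 ± 9.07 in macrophages and 26.4 ± 7.06 in monocytes. Slc11a1 was highest in monocytes (217 ± 69), macrophages (154 ± 44.6) and neutrophils (147 ± 82.6), again overlapping, and was at or below 13.9 CPM on average in each of the other named classes. Slc40a1 followed macrophages (68.1 ± 38.9 CPM) and neutrophils (43.8 ± 20) with at most 2.47 CPM in any other named class.

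Within the myeloid cells, clustered again on their own into 13 sub-clusters, Slc40a1 was spread unevenly among macrophages. It was highest in sub-cluster 1, whose leading genes include Cd209f, Lyve1, Cd163 and Igf1, at 154, 87.3, 39.2 and 271 CPM in NT, RT1, RT2 and RT3. In sub-cluster 5, whose leading genes include Mucl1, Mmp12 and Cd36, it was at 214, 46.8, 13.3 and 130.5 CPM. RT2 was the lowest of the 4 libraries in both, and the order of the others changed.

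Sub-cluster 4 (Ifit2, Cxcl9) held 67.1, 55.2, 22 and 134 CPM of Slc40a1, and sub-cluster 11 (Mki67, Plk1) held 80.6, 95.3, 19.1 and 149 CPM. Macrophage sub-cluster 8 was lower, at 65.8, 31.3, 6.64 and 12.7 CPM. The monocyte sub-clusters 0, 3 and 6 averaged 8.37, 0.568 and 4.88 CPM of Slc40a1, and in RT3 sub-clusters 0 (18 CPM) and 6 (19.5 CPM) lay above macrophage sub-cluster 8. Sub-cluster 5 also had the highest mean Fth1 of the 13, at 5748, 14498, 12659 and 14533 CPM, and the highest mean Slc11a1, at 146, 340, 330 and 252 CPM.

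Lcn2 among the myeloid cells was concentrated in monocyte sub-cluster 3, whose other leading genes include Chil3 of monocytes but also Mmp8, S100a8 and Wfdc21, genes known from neutrophils, and S100a8 and Wfdc21 also led the neutrophil cluster. Whether neutrophil cells or RNA contributed to this sub-cluster was not tested. It was at 0, 41.6, 109.5 and 71.6 CPM there, and Lcn2 was itself among the leading genes of that sub-cluster, so this is a description. Slc11a2 ranged from 7.99 to 49.4 CPM on average over the sub-clusters, highest in the Lyve1 sub-cluster 1. These sub-clusters were formed from the same cells, and none of these differences was tested.

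**Figure D2:**
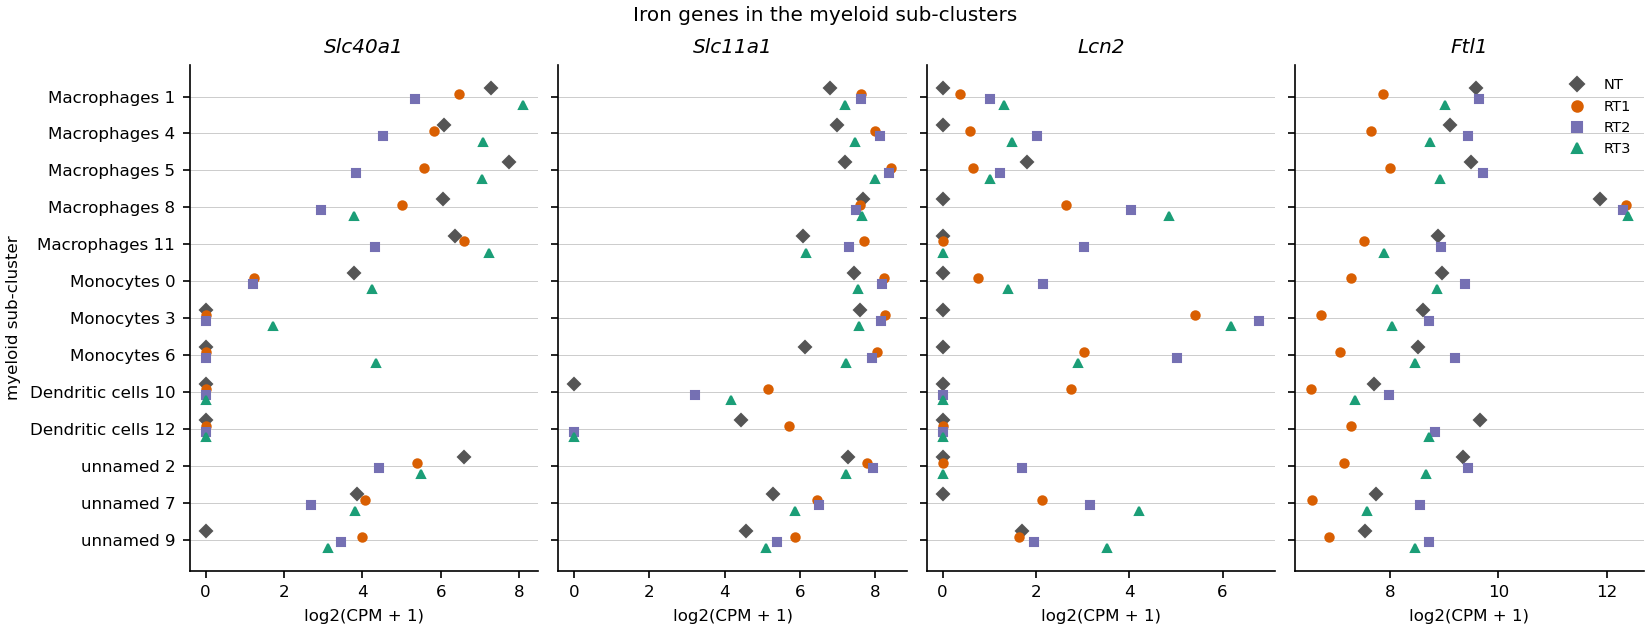
Levels of Slc40a1, Slc11a1, Lcn2 and Ftl1 as log2(CPM + 1) in the 13 myeloid sub-clusters, grouped by class, with 1 point for each library (symbols as for the cell classes). Slc40a1 has its highest means in macrophage sub-clusters 1 and 5, is lower in macrophage sub-cluster 8 and at 0 in dendritic cells, Lcn2 peaks in monocyte sub-cluster 3, and Ftl1 peaks in macrophage sub-cluster 8 in all 4 libraries.

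A pair of cell groups stood out for ferritin among the 18 clusters. Cluster 16, with 392 cells (32, 123, 114 and 123 by library), was left without a name. Its leading genes were Inhba, Mmp12, Il7r and Slc7a11, the cystine transporter, and macrophages were the nearest class. Fth1 stood there at 19563, 36067, 27826 and 29802 CPM, above every other cluster in each library. Hmox1, the heme oxygenase that releases iron from heme, was at 11385, 9338, 5912 and 14009.6 CPM in cluster 16, against 2449, 2466, 2067 and 3758 CPM in macrophage cluster 4. Slc40a1 was at 168, 134, 51.6 and 168 CPM from 84 UMIs (8 in NT), the highest mean of the 18 clusters (130.2 ± 54.8), but it overlapped macrophage cluster 4 (100.8 ± 65.2), which was the higher one in RT3 at 179 CPM. These are sums over the cells of the cluster, and whether single cells held these transcripts together was not tested.

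The other group was set apart by Ftl1. Macrophage cluster 14 (496 cells, led by Cd52, Crip1 and Ftl1 itself) held 3769, 4697, 4279 and 4439 CPM of Ftl1, and tumor cell cluster 8 (2740 cells, led by Rpl35, Rps15 and other ribosomal protein genes) held 501, 867, 1039.5 and 1053 CPM. Cluster 8 held 16723 of the 28561 Ftl1 UMIs of tumor cells. The other tumor cell clusters averaged 55 to 106.5 CPM. Fth1 did not follow: it averaged 7124 ± 496 CPM in cluster 14 and 5113 ± 915 in cluster 8. In the plot of both subunits over clusters, clusters 14, 16 and 8 have the highest mean Ftl1, in that order, and of these cluster 16 alone also has the highest Fth1. Cluster 16 held 3292, 360 (RT1), 2157 and 1878 CPM of Ftl1. Ribosomal protein genes lead cluster 8 and are among the leading genes of the matching myeloid sub-cluster, and their part in the Ftl1 level was not tested.

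Tumor cells were not uniform for uptake. Tfrc averaged 185 ± 22.2 CPM in tumor cluster 11, whose leading genes were Aldh1l2, Slc7a3, Trib3, Nos2 and Ndrg1. Genes of the cell cycle are among the leading genes of both cluster 0 (Cdk1, Birc5) and cluster 3 (Aspm, Cenpf). Tfrc averaged 166 ± 39.4 CPM in cluster 0 and 120 ± 27 in cluster 3. It averaged 88.6 ± 31.4 in cluster 7 (Ifit1, Gbp2) and 84.5 ± 15.6 in cluster 8. The unnamed clusters 1 and 6, led by Lum and Dpt, matrix genes, but holding Rhox5 at 90.6% and 77.2% of the tumor level, held 58 ± 21.2 and 45.5 ± 8.67 CPM, whereas the unnamed, shallow cluster 5, with Rhox5 at 80.1%, held 181.5 ± 37 CPM.

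**Figure D3:**
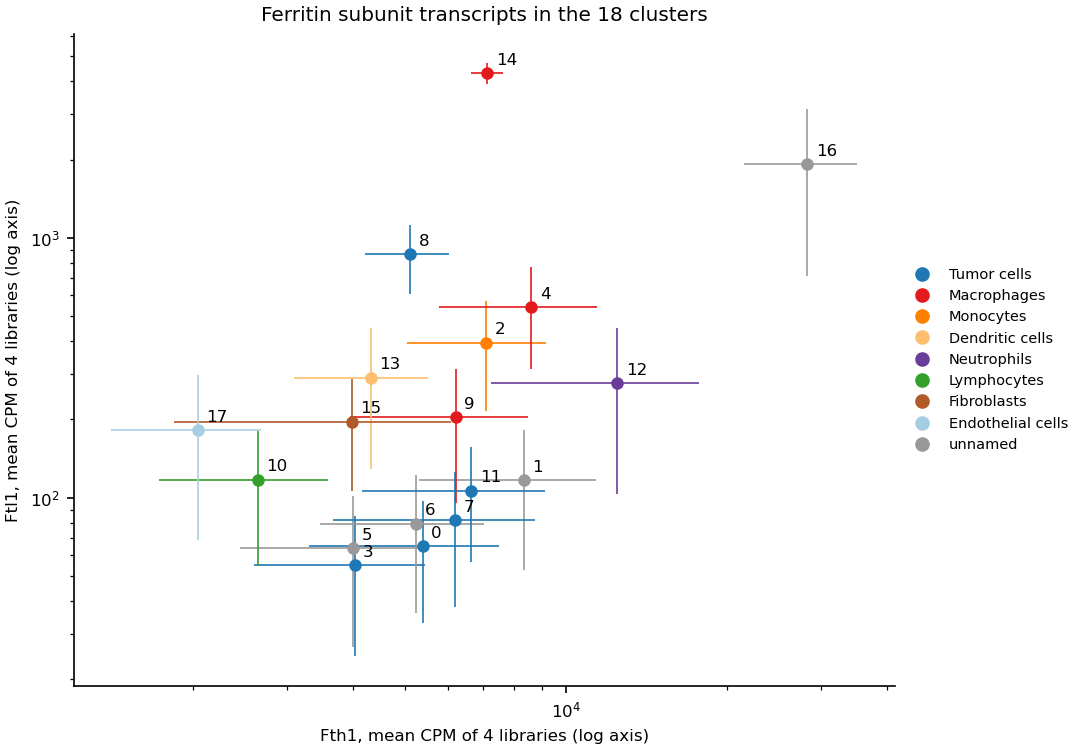
Mean Fth1 (horizontal, log axis) against mean Ftl1 (vertical, log axis) in CPM over the 4 libraries for each of the 18 clusters, coloured by cell class and numbered, with bars of 1 SD over libraries. Cluster 16 lies farthest right and cluster 14 highest, with cluster 8 above the other tumor cell clusters.

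The second comparison set the irradiated tumors against the non-treated pool. Fth1 was higher in RT than in NT, in every RT library and in all 8 cell classes, while no other of the 7 genes had such a pattern. In tumor cells the log2 ratios of RT1, RT2 and RT3 to NT were 1.33, 1.33 and 1.29, a mean of 1.32 ± 0.02 (SD, n = 3), or 2.49-fold. Of 6318 genes with at least 20 CPM in tumor cells, 25.4% were higher in every RT library and 0.791% were higher by a log2 ratio of at least 1 in each. In macrophages the ratios were 1.12, 1.11 and 1.07 (mean 1.10 ± 0.03), where 32.9% of 5914 genes were higher in every RT library and 1.94% passed the size of 1.

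The mean log2 ratio of Fth1 was 1.30 ± 0.02 in lymphocytes, where 22.3% of genes were higher in every RT library and 2.13% passed the size of 1. In neutrophils it was 1.67 ± 0.10 (30.6% and 13.4% of genes) and in fibroblasts 2.56 ± 0.15 (36.1% and 14.2%), the latter on 86 UMIs from 18 cells in NT. The 23 NT neutrophils held more Rhox5 (945 CPM) than those of RT1 to RT3 (698, 588 and 718). They were also poorer in neutrophil markers, as given below for Lcn2, and the part of this in the Fth1 ratio was not tested. Fth1 passed the size of 1 against every RT library in lymphocytes, neutrophils, fibroblasts, tumor cells and macrophages, that is in 5 of 8. It did not in endothelial cells (1.09 ± 0.10, with 28.8% and 7.4% of genes), monocytes (0.97 ± 0.13, with 40.5% and 3.75%) or dendritic cells (0.79 ± 0.24, with 30.9% and 4.92%). By cluster, Fth1 was higher in all RT libraries in 17 of 18, the exception being cluster 14, where RT2 (6501 CPM) lay below NT (6967 CPM). The higher level of Fth1 was thus found well beyond macrophages and tumor cells, and the RT libraries lay close together.

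The pattern of Fth1 was shared by other genes. Of 3897 genes with at least 20 CPM in all 8 classes, 67 (1.72%) were higher in every RT library in all classes, and 26 had a mean log2 ratio over the classes at or above the 1.35 of Fth1. Those 67 included Msrb1 and Emilin2, whose pattern over 31 points of class and library was closest to that of Fth1 (Pearson r = 0.90 and 0.87, points that share libraries). By mean log2 ratio over the classes the 67 were led by Msrb1 (2.01), Ier3 (1.99), Pttg1ip (1.95) and Lgals3bp (1.85). They also included Rpl9 and Mrpl33, which encode ribosomal proteins. All these genes were named after their values were seen. Whether the shift belongs to irradiation or to the NT library cannot be told apart.

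**Figure D4:**
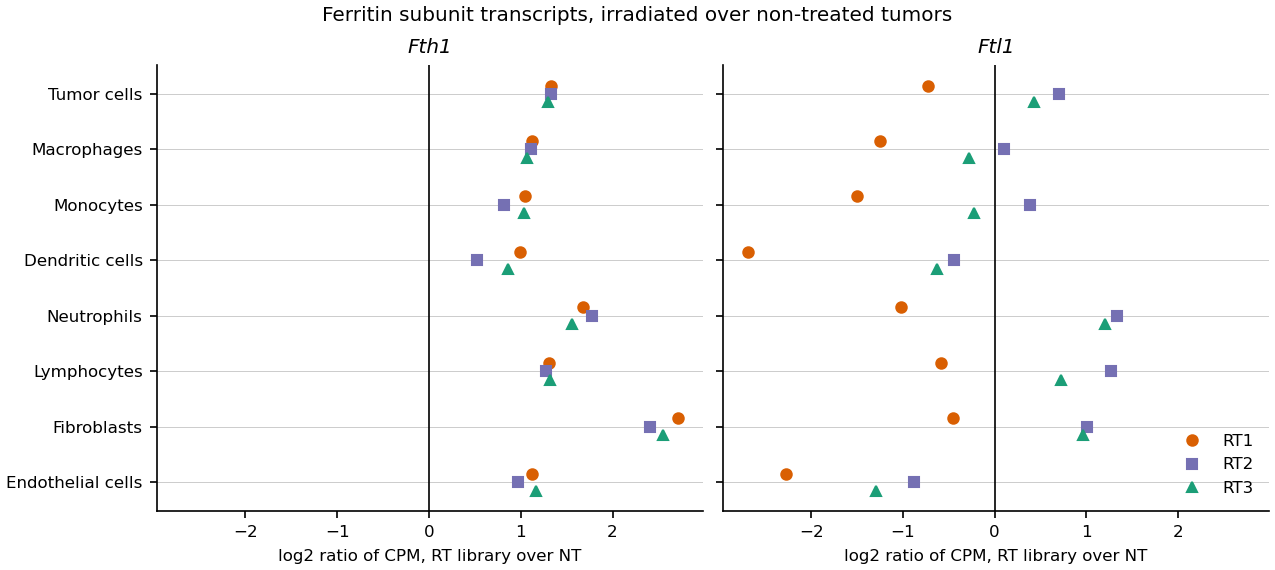
The log2 ratio of CPM of each RT library to NT (horizontal axis) for Fth1 and Ftl1 in 8 cell classes (vertical axis), with 1 point for each RT library; the vertical line marks no difference from NT. All Fth1 points lie to the right of the line, while Ftl1 in RT1 lies to the left of it in all 8 classes.

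Ftl1 did not move with Fth1. In tumor cells its log2 ratios to NT were -0.73, 0.70 and 0.43 in RT1, RT2 and RT3 (mean 0.13 ± 0.76), and in macrophages they were -1.25, 0.10 and -0.28 (mean -0.48 ± 0.69). The values lay on both sides of NT in both classes. Tumor cluster 8, with 16723 of the 28561 Ftl1 UMIs of tumor cells, had 948 of 5236 tumor cells in NT. In RT1, RT2 and RT3 it had 356 of 5179, 569 of 4587 and 867 of 6217. Its part in the tumor cell ratios was not tested. In NT, macrophage cluster 14 held 1049 of the 2620 Ftl1 UMIs of macrophages, from 77 of 768 cells. In RT1, RT2 and RT3 it had 97 of 2983, 182 of 2900 and 140 of 1760 macrophages. The part of cluster 14 in the macrophage ratios was not tested either. RT1 was the lowest of the 4 libraries for Ftl1 in 8 of 8 classes and in 16 of 18 clusters, the exceptions being clusters 8 and 14. In tumor cells and macrophages the spread of Ftl1 between irradiated tumors was larger than its mean distance from NT. It was lower in every RT library in endothelial cells (-1.48 ± 0.72) and dendritic cells (-1.25 ± 1.25) and in the unnamed cluster 16 (-1.54 ± 1.44), and higher in every RT library in tumor cluster 8 (0.97 ± 0.16) and macrophage cluster 14 (0.25 ± 0.07).

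Among the transporters, Slc11a1 in macrophages was higher in all RT libraries, at log2 ratios of 0.84, 0.88 and 0.27 (mean 0.66 ± 0.34), and in monocytes at 1.03, 0.91 and 0.34 (mean 0.76 ± 0.37). Neither reached the size of 1 in each library. Within macrophages, cluster 14 went the other way, with Slc11a1 lower in every RT library (mean -0.35 ± 0.03). In both cell types RT3 stood closest to NT. Slc11a2 was also on the higher side in macrophages, with ratios of 0.55, 0.33 and 0.29 (mean 0.39 ± 0.14), from 104 UMIs in NT, and in tumor cells with a mean of 0.10 ± 0.11.

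Slc40a1 in macrophages had the widest spread between irradiated tumors of the 6 genes with a ratio there. Relative to NT its log2 ratios were -0.78, -2.08 and 0.26 in RT1, RT2 and RT3 (mean -0.87 ± 1.17). The exact Poisson 95% intervals, which cover counting error only and not the spread between tumors, were 80.3 to 101 CPM in NT, 48.6 to 57 in RT1, 19.2 to 23.6 in RT2 and 100.5 to 116 in RT3, so NT and RT3 overlapped. Macrophage cluster 4 held 1872 of the 2028 UMIs and so nearly sets these values. In macrophage cluster 14 Slc40a1 was lower in every RT library (53.9, 30.6, 3.77 and 4.01 CPM, 33 UMIs in all), and in cluster 9 it was at 11.1, 16.3, 5.08 and 13.9 CPM.

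Tfrc lay on both sides of NT in tumor cells (log2 ratios 0.04, -0.33 and -0.72, mean -0.34 ± 0.38) and in macrophages (0.03, -0.41 and -0.40, mean -0.26 ± 0.25). In lymphocytes Tfrc, a receptor that dividing T cells raise, was lower in all RT libraries, at 195 CPM (NT), 122 (RT1), 104 (RT2) and 97.8 (RT3), a mean log2 ratio of -0.86 ± 0.17. Of 6398 genes in lymphocytes, 41.9% were lower in every RT library. In a finer clustering a lymphocyte cluster led by Cd8a and Cd3e held 266, 151, 357 and 188 cells in NT, RT1, RT2 and RT3. Another, led by Gzma and Ncr1, held 123, 210, 255 and 162. The mix of lymphocytes thus differed between libraries, and its part in the Tfrc ratio was not tested. Over the 18 clusters Tfrc was lower in every RT library in 8 and higher in 3. The lower ones included tumor clusters 0 (mean log2 ratio -0.44), 7 (-0.77) and 8 (-0.38), while in tumor cluster 11 Tfrc was higher, at 206, 199.8 and 178 CPM against 157 CPM in NT.

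Lcn2 had enough NT counts for a ratio in neutrophils and tumor cells only. Neutrophils gave log2 ratios of 2.37, 2.92 and 2.75 (mean 2.68 ± 0.28) on 5 UMIs in NT, whose exact 95% interval ran from 23.6 to 170 CPM and so ended below the lowest RT value of 377 CPM. The neutrophil markers themselves summed in these cells to 4028 CPM (NT), 24387 (RT1), 32488 (RT2) and 21988 (RT3), so the NT cells of this class were also poorer in neutrophil RNA, and its part in the Lcn2 ratio was not tested. In tumor cells Lcn2 was at 1.48 CPM in NT and the mean log2 ratio was 1.31 ± 0.18. Neutrophil markers moved the same way there, from 12.3 CPM to 32.3, 34.9 and 23 CPM.

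In monocytes no Lcn2 UMI was counted in NT among 960068 UMIs, which allows up to 3.12 CPM, against 12.05 CPM in RT1, 35.1 in RT2 and 25.4 in RT3. All RT values of Lcn2 thus lay above the limit that the NT count allows. Neutrophil markers in monocytes moved the same way, from 35.4 CPM in NT (5 of 8 markers above 0, led by Csf3r) to 213 in RT1, 244 in RT2 and 120.1 in RT3 (7, 8 and 7 of 8), and neutrophils were 0.231% of cells in NT and 1.21%, 1.67% and 0.817% in the RT libraries. Their part in the Lcn2 level was not tested.

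The wider iron pathway was read from 69 further genes, of which 65 were in all tables and 57 had enough UMIs to be tested. In macrophages against tumor cells 29 were higher, 17 were lower and 11 did not pass edgeR's test at an adjusted p under 0.05, that is 80.7% called against 75.4% of all genes. Their median log2 ratio was 0.31, beside -0.04 over all genes tested. With library totals in place of TMM, 22 were higher and 26 lower. The counts for each role below stand beside 37.3% of all genes higher and 38% lower, and differences between roles were not tested. The plot of pathway genes by role gives each gene's ratio.

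The genes of heme capture and breakdown were mostly higher in macrophages, 9 of 11 tested (7 with library totals) with a median log2 ratio of 1.92. Hmox1 averaged 1992 CPM in macrophages and 79.2 CPM in tumor cells (log2 ratio 5.24, SE 0.20, adjusted p = 6.2e-08). Cd163, the receptor for hemoglobin bound to haptoglobin, averaged 30.9 CPM and 0.0959 CPM (8.72, SE 0.14, adjusted p = 3.2e-09). Blvrb, a biliverdin reductase, was at 2.26 (SE 0.14). Pgrmc1, a heme-binding membrane protein, was lower in macrophages, at -0.46 (SE 0.07).

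All 5 tested transcription factors of iron genes were higher in macrophages, with a median log2 ratio of 2.30. Bach1, which represses Hmox1 and ferritin genes until heme binds it, was at 2.56 (SE 0.09), and Nfe2l2, which activates them, at 2.30 (SE 0.16). Of the regulators around iron regulatory proteins and hepcidin, 6 of 7 were higher, and with library totals 4 were higher and 2 lower. Aco1, an iron regulatory protein counted as higher, averaged 45.2 CPM in macrophages and 52.0 in tumor cells. The largest were Bmp2, a bone morphogenetic protein, at 9.48 (SE 0.28) with 63.3 CPM in macrophages and 0.118 CPM in tumor cells, and Hfe, the hemochromatosis protein, at 3.16 (SE 0.09).

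Uptake genes went both ways, with 2 higher and 5 lower of 9 tested. Trf, which encodes transferrin itself, averaged 253 CPM in macrophages and 0.681 CPM in tumor cells (log2 ratio 9.12, SE 0.24, adjusted p = 9.1e-09). The metalloreductases Steap1 (-1.70, SE 0.13) and Steap2 (-1.48, SE 0.14) were lower in macrophages. Cp, ceruloplasmin, the ferroxidase that works with ferroportin, was lower as well, with 113 CPM in macrophages and 221 in tumor cells (-0.51, SE 0.09, adjusted p = 6.9e-04).

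Heme synthesis (2 higher, 2 lower of 8) and mitochondrial iron and iron-sulfur cluster genes (3 higher, 5 lower of 13) had medians of -0.09 and -0.01. With library totals these counts were 1 higher and 6 lower (median -0.57) and 2 higher and 9 lower (median -0.49). Alad, the second enzyme of heme synthesis, was at -0.90 (SE 0.09). Glrx5 (-0.66, SE 0.08), Cisd1 (-0.62, SE 0.07) and Lyrm4 (-0.58, SE 0.08), all of the iron-sulfur cluster machinery or its carriers, were lower in macrophages. Of the ferritin handling genes 2 of 3 were higher and 1 was lower, and with totals 1 was higher and 1 lower. Pcbp1, an iron chaperone counted as higher, averaged 647 CPM in macrophages and 726 in tumor cells and was lower by CPM in all 4 libraries, so its direction rests on the TMM scaling, as do those of Aco1 and of Uros, an enzyme of heme synthesis.

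**Figure D5:**
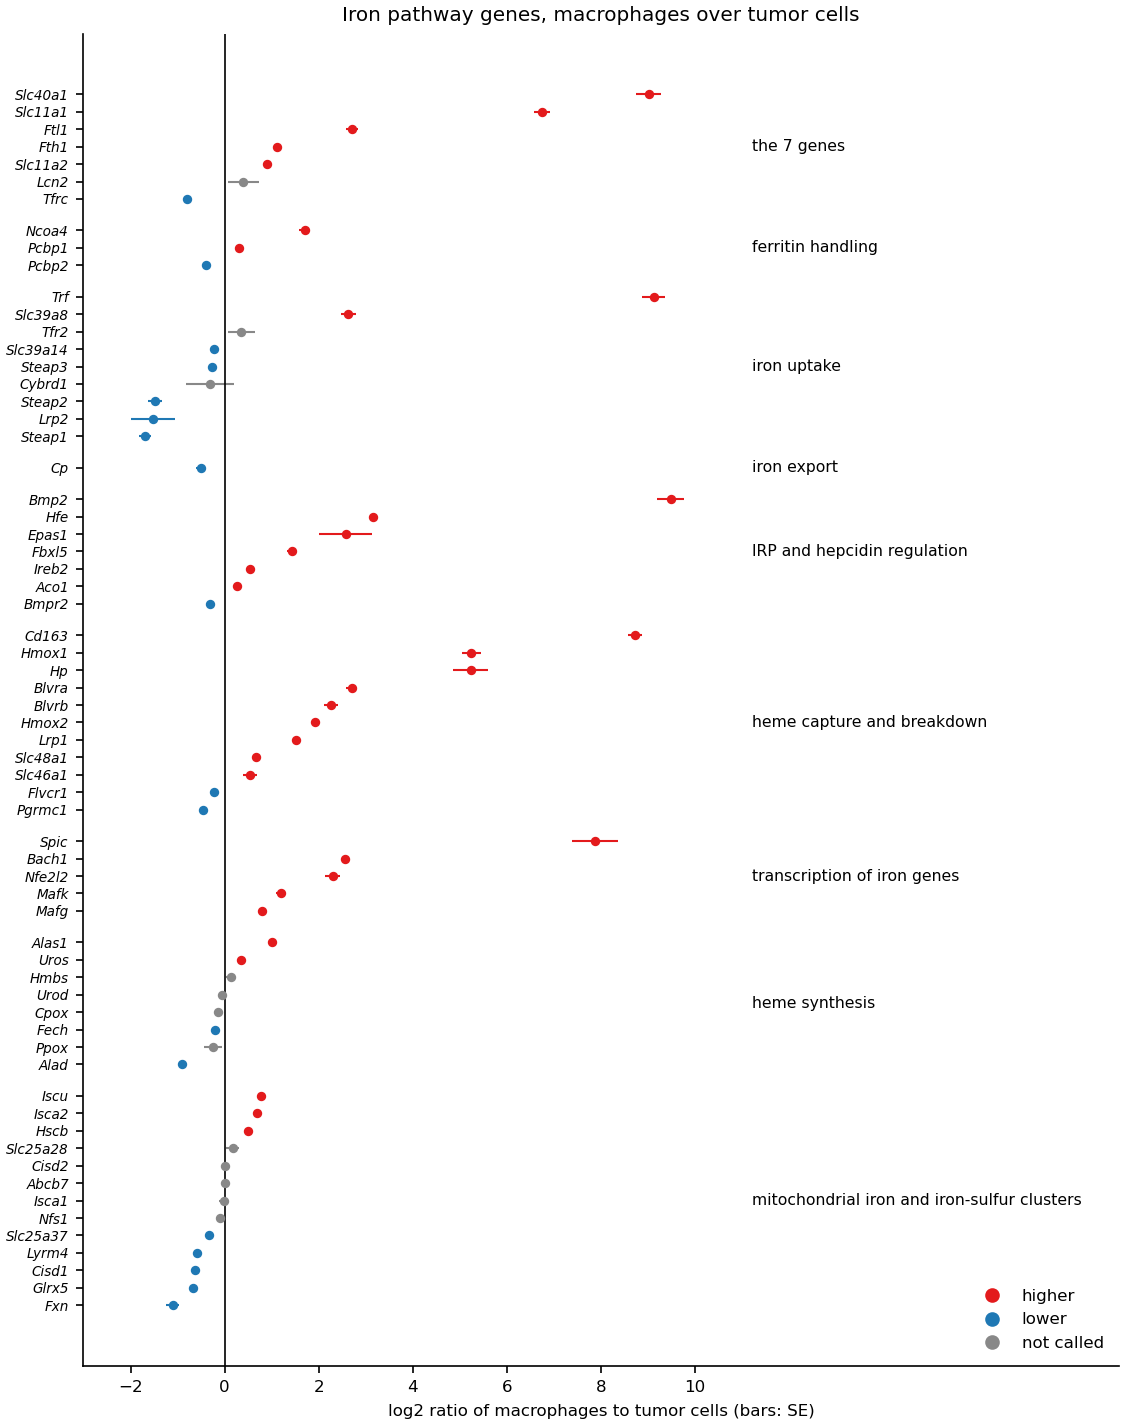
The log2 ratio of macrophages to tumor cells (horizontal axis, edgeR, bars of 1 SE, 4 libraries) for the 7 genes and the 57 tested pathway genes, grouped by role; red is higher and blue lower at an adjusted p under 0.05, grey is not called. Slc40a1, Trf, Bmp2, Cd163 and Spic lie farthest right, while Tfrc lies left of 0.

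The wider pathway was then set against NT. Of 40 pathway genes with at least 20 CPM in macrophages, 15 were higher and 8 lower in every RT library (background 32.9% and 30.5%), with a median log2 ratio of 0.05, and in tumor cells 11 were higher and 10 lower of 37 (background 25.4% and 37.3%), with a median of 0.04. By the size of 1 in each library only Trf passed, in macrophages, against 1.94% of all genes, and no pathway gene passed in tumor cells. Trf was at 99.99 CPM in NT macrophages and at 309, 396 and 207 CPM in RT1 to RT3, a mean log2 ratio of 1.55 ± 0.47, and with TMM-scaled CPM it no longer passed. Hmox1 lay on both sides of NT in macrophages, at 1941 CPM (NT), 1863 (RT1), 1586 (RT2) and 2577 (RT3).

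The genes closest to each of the others over the 31 points of class and library, among 8501 genes, were these. Slc11a1 went with Cd300lb, C5ar1 and Clec4d (Pearson r = 0.96, 0.94 and 0.94), Slc40a1 with Fpr1, Hmox1 and Cd300ld (0.82, 0.78 and 0.77), Tfrc with Haus3, Sms and Chaf1a (0.85, 0.84 and 0.84), and Ftl1 with Bri3, Atp6v0c and Ifitm2 (0.85, 0.84 and 0.80). Slc11a2 went with Manba, Hpse and Mitf (0.80, 0.78 and 0.77), Lcn2 with Gadd45a, Steap4 and Wfdc21 (0.82, 0.79 and 0.79), and the third gene for Fth1 was Nadk (0.84). These points share libraries and depth and are given as a description.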

How the data were processed

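The authors deposited whole-number UMI counts per gene and barcode for 4 single-cell libraries made with the SeekOne MM 3′ kit. The study's methods name SeekOne Tools, and the submitters' processing notes list STAR 2.5.1b, featureCounts, Subread 1.6.4 and Cell Ranger with builds GRCm39 and mm39. The count tables hold no coordinates, and printed positions are from GENCODE M21 (GRCm38).

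Libraries were joined on 18605 unique symbols. Barcodes under 200 genes or above 20% mitochondrial UMIs were dropped, leaving 9976 in NT, 15029 in RT1, 14993 in RT2 and 15060 in RT3, with median UMIs of 5709, 3865, 5200 and 4158. With 2000 variable genes, without the 7 genes and the pathway list, 30 components, a rewritten Harmony step and Leiden clustering (resolution 0.8), clusters were named from marker lists, and a tie rule (names within 0.2 log2 were not given) was added after the clusters were seen. Scrublet called no doublet in NT, so none were removed in the values reported. UMIs were summed per class and library and tested with edgeR 4.0.16 in R 4.3.3 (TMM, filterByExpr, Benjamini-Hochberg), with DESeq2 1.42.0 as an alternative. On simulated counts for macrophages against tumor cells (12981 genes), 89.8% of genes changed by a log2 of 1 and 99.0% of those changed by 2 were recovered. All other genes had equal means in both simulated classes, whereas 75.4% of genes were called in the real comparison. These rates therefore do not measure recovery in the real comparison. RT was set against NT by CPM ratios with no test, with a size rule of a log2 ratio of at least 1 against every RT library and at least 20 CPM. Poisson intervals (95%) and the limit for a count of 0 (3 counts) cover counting error only. Nothing says that cells of a library are independent of each other, so libraries were the replicates.

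All 7 genes are named, with the 8 largest and the 8 smallest called log2 ratios of macrophages to tumor cells among pathway genes of at least 20 CPM in either class, those past the size rule, and the 3 genes most like each of the 7. The genes, lists and tests were chosen with earlier results of these data known. Marker sums for erythroid cells, at most 1.82 CPM in macrophages, and for B cells, mast cells, keratinocytes and skeletal muscle, each at most 4.72 CPM there, served as a check of other cell types. Scripts used Python 3.11.15, scanpy 1.11.5 and leidenalg 0.10.2.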

Additional observations from a re-analysis of the deposited data

How the results depend on the processing

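The signs of Fth1, Ftl1, Slc40a1, Tfrc, Slc11a1 and Slc11a2 between macrophages and tumor cells held under the alternatives run. Fth1 in RT over NT (log2) was, in macrophages, 1.04 with cells classed by their own markers, 1.14 with tumor RNA subtracted, 1.07 without the cluster with tumor RNA and 1.21 without ribosomal-led clusters, and 1.09 to 1.12 leaving out each RT library. In tumor cells it was 1.41 at resolution 1.2, 1.37 by own markers, 1.29 with TMM-scaled CPM, 1.38 with tumor-RNA clusters joined and 1.48 without ribosomal-led clusters, and 1.31 to 1.33 leaving out each RT library. Tfrc in macrophages was 0.0282 by own markers, 0.0449 without the 8% of cells of highest doublet score, -0.62 with tumor RNA subtracted and 0.0252 without the cluster with tumor RNA. In tumor cells Lcn2 was 1.77 by own markers, 0.92 as log2(CPM + 1) and 1.66 without ribosomal-led clusters, and Slc11a1 was 0.91 as log2(CPM + 1) and 1.91 without ribosomal-led clusters. The causes were not tested. The settings on joined clusters, the cluster with tumor RNA and ribosomal-led clusters were chosen after seeing the data. The clusters left out as ribosomal-led were tumor cluster 8 and macrophage cluster 14. The listed leading genes of cluster 14 include no ribosomal protein gene.

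Lcn2 in macrophages over tumor cells was -1.54 by own markers, -0.38 without high doublet scores, -0.0861 with library totals and -0.0608 to 0.76 leaving out each library, with -0.0608 without RT3 and 0.76 without RT1. Leaving out each library, Slc11a2 in macrophages over monocytes ranged from 0.18 to 0.33, and in neutrophils over macrophages Fth1 ranged from 0.28 to 0.60, Slc40a1 from -0.75 to 0.16 (0.02 without NT) and Tfrc from -0.29 to 0.12. Pathway genes past the size rule in macrophages were 3 at a threshold of 0.5, 0 with TMM-scaled CPM and 1 to 2 leaving out each RT library, and in tumor cells 1 at a threshold of 0.5. Those lower in macrophages than in tumor cells were 26 with library totals.

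Each library gave both classes, so the library was a block. Without the replicate block the log2 ratios of macrophages to tumor cells were 1.08 for Fth1, 2.71 for Ftl1, 9.04 for Slc40a1, -0.82 for Tfrc, 6.73 for Slc11a1, 0.91 for Slc11a2 and 0.57 for Lcn2, with 26 pathway genes higher and 10 lower. No paired analysis was possible because, for RT against NT, NT was a single library of pooled tumors. Depth limits Slc40a1 in tumor cells (33 UMIs) and every NT value of neutrophils (23 cells) and fibroblasts (18 cells).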
